A study of Rattus norvegicus with 9 samples.

Results

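Array rows R040, A070, A017, R590 and S62R were the rows most often at least 2-fold lower after acute heat stress in an expression series of the rat heart. They were chosen by the deposited log2 ratios themselves, as the rows at least 2-fold lower (1.00 or more log2 units) in the heat-stressed group than in its own unstressed group in at least 3 of 4 states of the rats. Applied to the whole table, that rule gave these 5 rows of 87 and no other. A further 12 rows were 2-fold lower in 2 states, 25 in 1 state and 45 in none. The differences that chose the rows are given below as a description, without a test.

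Total RNA came from the left ventricle of rats in 9 groups. In 4 groups the rats had been exposed to 41 °C for 2 h and then left at 24 °C for 1 h: rats that were not acclimated, rats acclimated at 34 °C for 2 d, rats acclimated at 34 °C for 1 mo, and reacclimated rats. In 5 groups there was no acute stress: the same 2 d and 1 mo acclimated states, the reacclimated state, deacclimated rats, and untreated controls. Deacclimated rats had lived at 24 °C for 1 mo after 1 mo at 34 °C, and reacclimated rats then went back to 34 °C for 2 d. The labels name no strain, sex or age. RNA of individual animals was combined into 3 pools per group, with 6 animals stated, and hybridised with a radioactive label to a Clontech array. Only 1 value per row and group was used here, so the spread between pools is not known, no difference below has a p-value, and neighbouring levels cannot be said to differ beyond their spread.

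Animals kept in a warm environment slowly adjust to it, which is called heat acclimation, and the acclimated rat heart is known for better tolerance of later injury, such as a loss of blood supply. Acute heat stress switches on the genes of heat shock proteins through heat shock factors. In many cells it also cuts back the transcription of a large part of the other genes. In RNA from a whole ventricle, fewer cells of a type and less RNA per cell cannot be told apart. None of the 5 row names matched a gene in the RefSeq table of the rat (0 of 5, and 0 of all 87 rows), and the files give no gene name. The rows are therefore described by their array names, with no role, no marker check of the tissue and no sequence.

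Each row has a value in both deposited tables: a log2 ratio to the control and an intensity on a linear scale. The control was taken as 0 in log2 ratios, and the listed control values of the 5 rows were within 1e-05 of 0. Intensity differences are given on the log2 scale after centring each group on the median of the 59 rows above 0 in all groups, and are called scaled. Only R040 and S62R of the 5 rows were above 0 in all groups. The scaling took up a log2 difference between the stressed and the unstressed group of -0.04 without acclimation, 0.01 in the 1 mo acclimated state and 0.37 in the reacclimated state, but of -1.59 in the 2 d acclimated state. The median intensity there was 1064 in the stressed group and 4962 in the unstressed group.

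**Figure D1:**
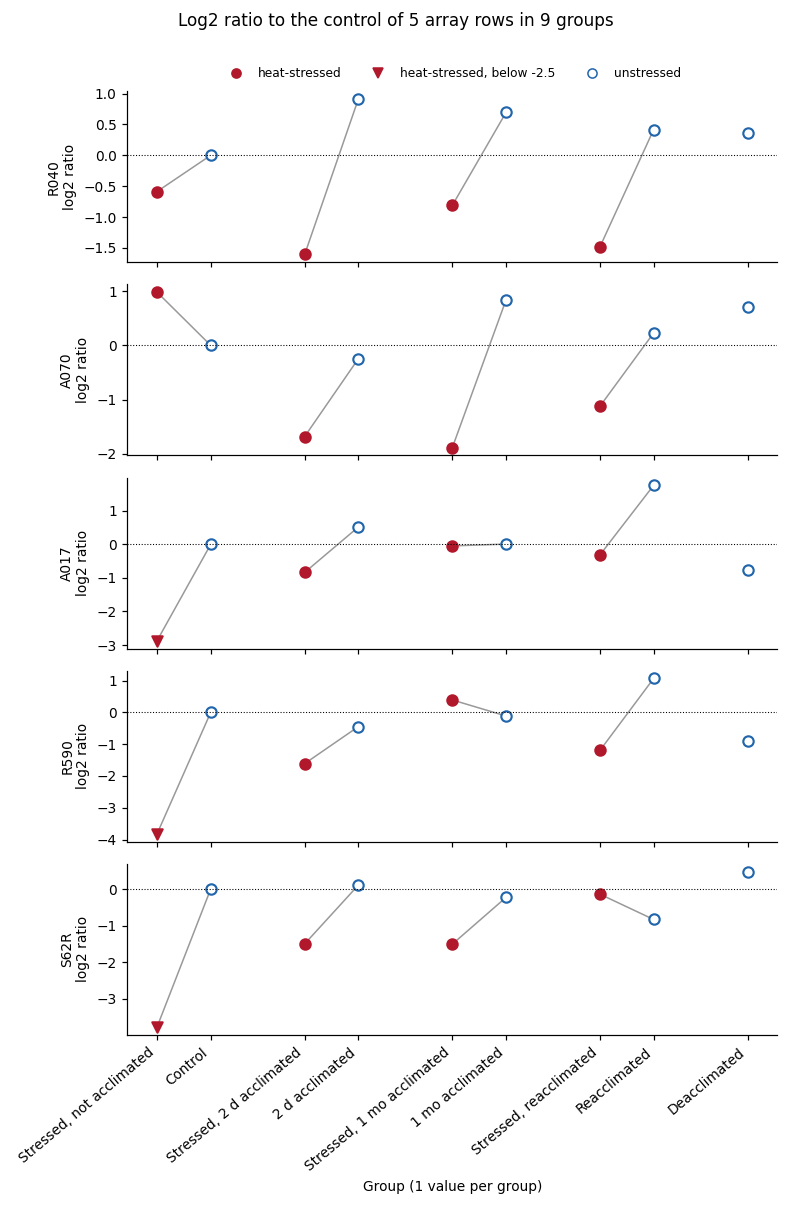
Log2 ratio to the control (vertical axes, which differ between panels) of R040, A070, A017, R590 and S62R in the 9 groups, 1 value per group, with each stressed group (filled) joined to its own unstressed group (open). Triangles mark the 3 values below -2.5, all in stressed rats that were not acclimated; R040 is the row whose 4 stressed points all lie below its 5 unstressed points.

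R040 had the most even pattern. Its log2 ratio was -0.59 in stressed rats that were not acclimated, -1.61 in stressed 2 d acclimated rats, -0.81 in stressed 1 mo acclimated rats and -1.48 in stressed reacclimated rats. Without stress it was 0.91 in 2 d acclimated, 0.69 in 1 mo acclimated, 0.36 in deacclimated and 0.42 in reacclimated rats, with the control at 0. All 4 stressed values thus lay below all 5 unstressed ones. R040 was the only row of the 87 with such a gap in this direction, which is a background of 1.15%, and the rule that chose it favours such a gap.

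Set against its own unstressed group, R040 was 5.72-fold lower under stress after 2 d acclimation (log2 difference -2.52), the lowest difference of all rows in that state. It was 3.73-fold lower after reacclimation (-1.90) and 2.84-fold lower after 1 mo acclimation (-1.50). Without acclimation the difference was -0.59, which is short of 2-fold. The mean over the 4 states was -1.63 ± 0.81 (SD over states, n = 4 states), where the SD holds any difference between states as well as error.

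The intensities of R040 gave the same direction in each state. They were 3739 in stressed rats that were not acclimated, against 5289 in the control, and 2113 in stressed 2 d acclimated rats, against 19005 without stress. After 1 mo acclimation the intensity was 2921 under stress, against 7034 without it, and after reacclimation it was 2358 under stress, against 4358 without it. The scaled log2 differences were -0.46, -1.58, -1.28 and -1.25 in that order of states, so 3 of them were also at least 2-fold. The groups did overlap by intensity, since the deacclimated heart stood at 3212, below the 3739 of the stressed rats that were not acclimated. The overlap was wider by scaled intensity relative to the control. Unstressed deacclimated hearts were at -1.39 and unstressed reacclimated hearts at -0.70. The stressed values were -0.46 without acclimation, -0.62 after 2 d, -1.10 after 1 mo and -1.95 after reacclimation. The 19005 of the 2 d acclimated group was by far the highest intensity of R040, and the unscaled log2 difference in that state was -3.17. Without scaling the reacclimated difference was -0.89, under 2-fold.

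A070 was low under stress in each acclimated state and high in stressed rats that were not acclimated. Its log2 ratio was 0.98 in stressed rats that were not acclimated, -1.68 in stressed 2 d acclimated rats, -1.89 in stressed 1 mo acclimated rats and -1.12 in stressed reacclimated rats. The unstressed groups stood at -0.25 after 2 d, 0.84 after 1 mo, 0.71 after deacclimation and 0.23 after reacclimation. The stressed value without acclimation was therefore the highest of the 9 groups, and the other 3 stressed values were below every unstressed one.

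The stress difference of A070 was 0.98 without acclimation, just under 2-fold higher. In 2 d acclimated rats it was -1.44, in 1 mo acclimated rats -2.72 (6.61-fold lower, the second lowest difference of all rows in that state) and in reacclimated rats -1.35. The mean was -1.13 ± 1.54 (SD over states, n = 4 states), with a spread wider than the mean. By intensity A070 stood at 2322 under stress without acclimation, against 1409 in the control, a scaled difference of 0.77. It was at -133.2 in stressed 2 d acclimated rats, against 697.1 without stress, and a value below 0 has no log2 ratio. After 1 mo acclimation it was 764.5 under stress and 1960 without it (scaled difference -1.37), and after reacclimation 1261 under stress and 1547 without it (-0.66). Both tables thus placed A070 higher under stress in rats that were not acclimated and lower under stress after 1 mo acclimation and reacclimation.

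A017 and R590 shared another pattern by log2 ratio: lowest in stressed rats that were not acclimated, highest in unstressed reacclimated rats, and not 2-fold lower under stress after 1 mo acclimation. The lowest values of both rows were below -2.5. By scaled intensity relative to the control, those stressed rats stood at -0.81 (A017) and -1.03 (R590). Among groups with a log2 intensity, both rows were then highest in the control and lowest after deacclimation (-3.53 and -4.20). The log2 ratio of A017 was -2.87 in stressed rats that were not acclimated, -0.84 in stressed 2 d acclimated rats, -0.04 in stressed 1 mo acclimated rats and -0.31 in stressed reacclimated rats. Its unstressed values were 0.52 after 2 d, 0.01 after 1 mo, -0.76 after deacclimation and 1.76 after reacclimation. Unstressed deacclimated hearts lay below the stressed hearts of both the 1 mo acclimated and the reacclimated rats, so the groups overlapped.

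The stress differences of A017 were -2.87 in rats that were not acclimated, -1.35 in 2 d acclimated, -0.05 in 1 mo acclimated and -2.07 in reacclimated rats, with a mean of -1.59 ± 1.20 (SD over states, n = 4 states). In the reacclimated state the 4.21-fold difference lay between a stressed value of -0.31 and an unstressed value of 1.76 relative to the control. The intensities of A017 were 2624 in stressed rats that were not acclimated, against 4740 in the control, and -182.9 in stressed 2 d acclimated rats, against 4009 without stress. They were 1236 under stress and 1347 without it after 1 mo acclimation, and 1726 under stress and 4761 without it after reacclimation. The scaled differences were -0.81 without acclimation, -0.14 after 1 mo acclimation and -1.83 after reacclimation. In the reacclimated state the difference was therefore at least 2-fold in both tables, but they placed it differently. Relative to the control, the scaled intensity was -2.24 under stress and -0.41 without it, a low stressed value, while by log2 ratio the unstressed value was the one far from the control.

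R590 stood at a log2 ratio of -3.82 in stressed rats that were not acclimated, -1.61 in stressed 2 d acclimated rats, 0.39 in stressed 1 mo acclimated rats and -1.19 in stressed reacclimated rats. Without stress it was at -0.45 after 2 d, -0.11 after 1 mo, -0.90 after deacclimation and 1.07 after reacclimation. The stressed values of the not acclimated, 2 d acclimated and reacclimated rats were below every unstressed value, and that of the 1 mo acclimated rats was above all unstressed values but the reacclimated one.

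Its stress differences were -3.82 in rats that were not acclimated (14.2-fold lower), -1.16 in 2 d acclimated rats, 0.50 in 1 mo acclimated rats and -2.26 in reacclimated rats, the lowest of all rows in the reacclimated state. The mean was -1.69 ± 1.82 (SD over states, n = 4 states). The intensities of R590 went against this in the reacclimated state, at 2447 under stress and 1495 without it, a scaled difference of 0.35. They were 2376 in stressed rats that were not acclimated, against 5013 in the control (-1.03), and -161 in stressed 2 d acclimated rats, against 543.2 without stress. After 1 mo acclimation they were 2326 under stress and 929.6 without it (1.31), higher under stress as in the log2 ratios. Over the 3 states with a log2 intensity the mean difference was 0.21 ± 1.18 (SD over states, n = 3 states), opposite in sign to the mean of the log2 ratios.

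S62R was low under stress except in reacclimated rats. Its log2 ratio was -3.77 in stressed rats that were not acclimated, -1.50 in stressed 2 d acclimated rats, -1.50 in stressed 1 mo acclimated rats and -0.14 in stressed reacclimated rats. The unstressed values were 0.11 after 2 d, -0.23 after 1 mo, 0.48 after deacclimation and -0.83 after reacclimation. Reacclimated hearts were thus the lowest of the unstressed groups, below their own stressed counterpart.

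The stress differences of S62R were -3.77 in rats that were not acclimated (13.6-fold lower), -1.61 in 2 d acclimated, -1.28 in 1 mo acclimated and 0.69 in reacclimated rats, with a mean of -1.49 ± 1.83 (SD over states, n = 4 states). By intensity the direction was turned round in rats that were not acclimated, at 2589 under stress against 1236 in the control (scaled difference 1.11). It was 75.5 in stressed 2 d acclimated rats, against 4182 without stress (-4.20), and 1050 under stress and 1451 without it after 1 mo acclimation (-0.48). In reacclimated rats S62R was at 2225 under stress and 209.3 without it (3.04), higher under stress as by the log2 ratio. The 209.3 ranked 8 from the lowest of 87 rows, close above the 6 rows below 0, so this size is uncertain.

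**Figure D2:**
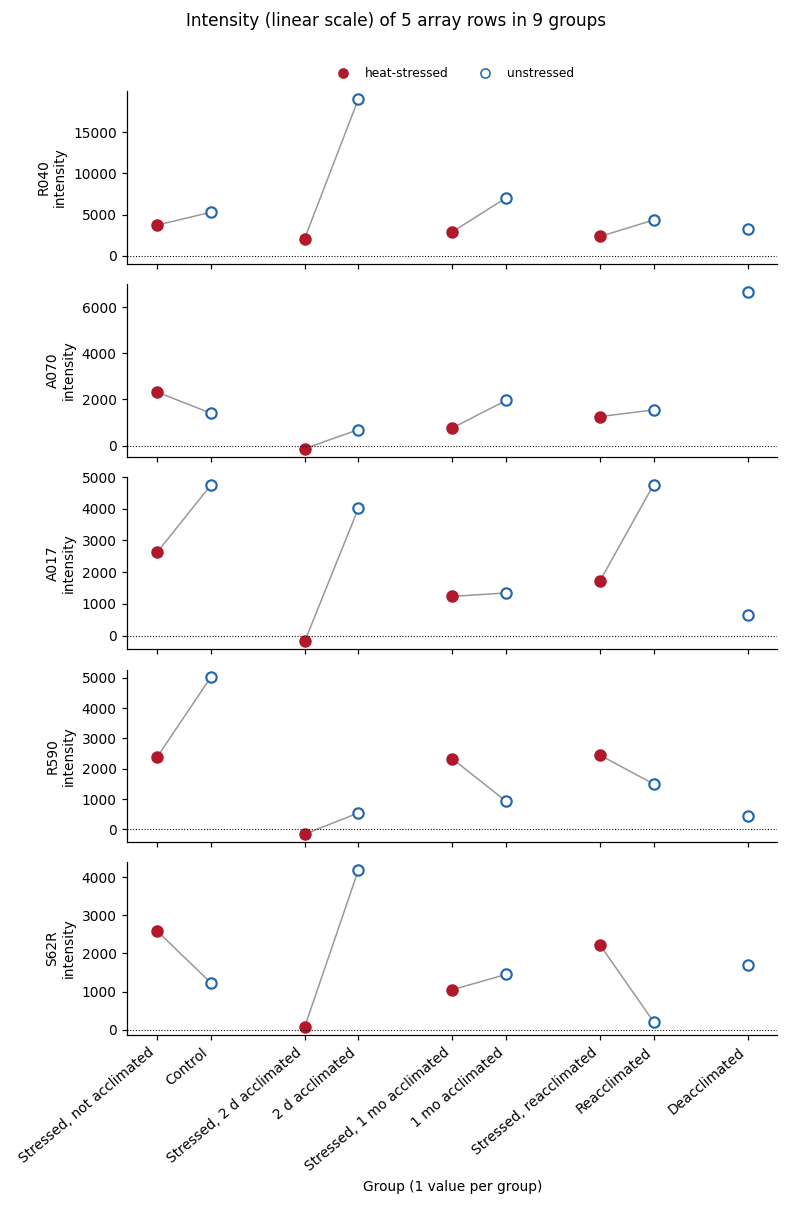
Intensity on a linear scale (vertical axes, which differ between panels) of the same 5 rows and 9 groups, 1 value per group, with each stressed group (filled) joined to its own unstressed group (open) and 0 dotted. A070, A017 and R590 lie below 0 in stressed 2 d acclimated rats, and the slope is opposite to that of the log2 ratios for S62R in rats that were not acclimated and for R590 in reacclimated rats.

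Of the 20 differences formed by 5 rows in 4 states, 15 were at least 2-fold lower under stress by log2 ratio, and the rule itself sets this count. Without acclimation they covered 3 of the 5 rows (A017, R590 and S62R), where 10.3% of all 87 rows were as low. After 2 d acclimation they covered 5 of 5, against 33.3% of all rows. In that state 29 rows were at least 2-fold lower and 8 higher, and with each group centred on its median 8 were lower and 12 higher, R040 and S62R being the 2 of the 5 rows still as low. After 1 mo acclimation they covered R040, A070 and S62R, against 19.5%, and after reacclimation all but S62R, against 10.3%. The median difference of the 5 rows was -2.87, -1.44, -1.28 and -1.90 in these states, and that of all 87 rows was -0.06, -0.39, -0.19 and -0.18. Since these differences chose the rows, nothing is read from either contrast with the background.

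The 15 low differences were next sorted by how far the second table carried them. In 3 of them, A017, R590 and S62R without acclimation, the stressed log2 ratio was below -2.5. The heat-stressed column held 6 such values, and the next lowest row was R087 at -1.29, so these values stood apart from the rest. To match the log2 ratios on the linear scale, the heat-stressed intensity would have had to be 646.9 for A017, 354.2 for R590 and 90.7 for S62R. The lowest intensity listed in that group was 1511, with 11 rows empty, so no listed value was that low. The scaled differences of these rows in that state (-0.81 for A017, -1.03 for R590 and 1.11 for S62R) were nearer to 0 than the log2 ratios or, for S62R, of the opposite sign.

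In another 3, A070, A017 and R590 after 2 d acclimation, the stressed intensity was below 0. The direction was the same in both tables there, but the second gives no size. In all, 14 of the 87 rows were below 0 in the stressed 2 d acclimated group and 10 in the unstressed 2 d acclimated group. The stressed 2 d acclimated group was the only one in which any of the 5 rows was below 0.

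Of the 9 differences left, 6 were at least 2-fold lower in both tables. The share of all rows as low in both tables was not computed, and the log2 ratios chose the rows. Nothing is therefore read from this count. The 6 differences were R040 in all 3 acclimated states, A070 after 1 mo acclimation, A017 after reacclimation and S62R after 2 d acclimation. The stressed intensity of S62R there, 75.5, ranked 18 from the lowest of 87 rows, close above the 14 rows below 0, so the size of its scaled difference is uncertain. For 2 more, A070 after reacclimation and S62R after 1 mo acclimation, intensities were lower by less than 2-fold. For R590 after reacclimation the intensity had the opposite sign. R590 thus had none among these 6 differences, while R040 had 3. The difference of R590 without acclimation was also at least 2-fold lower by scaled intensity (-1.03). It was sorted apart above because its stressed log2 ratio was below -2.5.

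By scaled intensity alone, 1 of 5 rows was at least 2-fold lower without acclimation (R590), against 9.21% of the 76 rows with a value. After 2 d acclimation it was 2 of the 2 rows with a value, against 31.8% of 66 rows. After 1 mo acclimation it was 2 of 5, against 19.5% of 87 rows, and after reacclimation 2 of 5, against 9.88% of 81 rows. Rows lower in direction in both tables, whatever the size, were 3 of 5 in rats that were not acclimated, 2 of 2 in 2 d acclimated, 4 of 5 in 1 mo acclimated and 3 of 5 in reacclimated rats. The shares over all rows with both values were 26.3%, 43.9%, 43.7% and 43.2% in the same order. The log2 ratios in these counts are those that chose the rows, and A070, A017 and R590 had no log2 intensity under stress after 2 d acclimation. Nothing is therefore read from the contrasts with all rows in this paragraph.

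**Figure D3:**
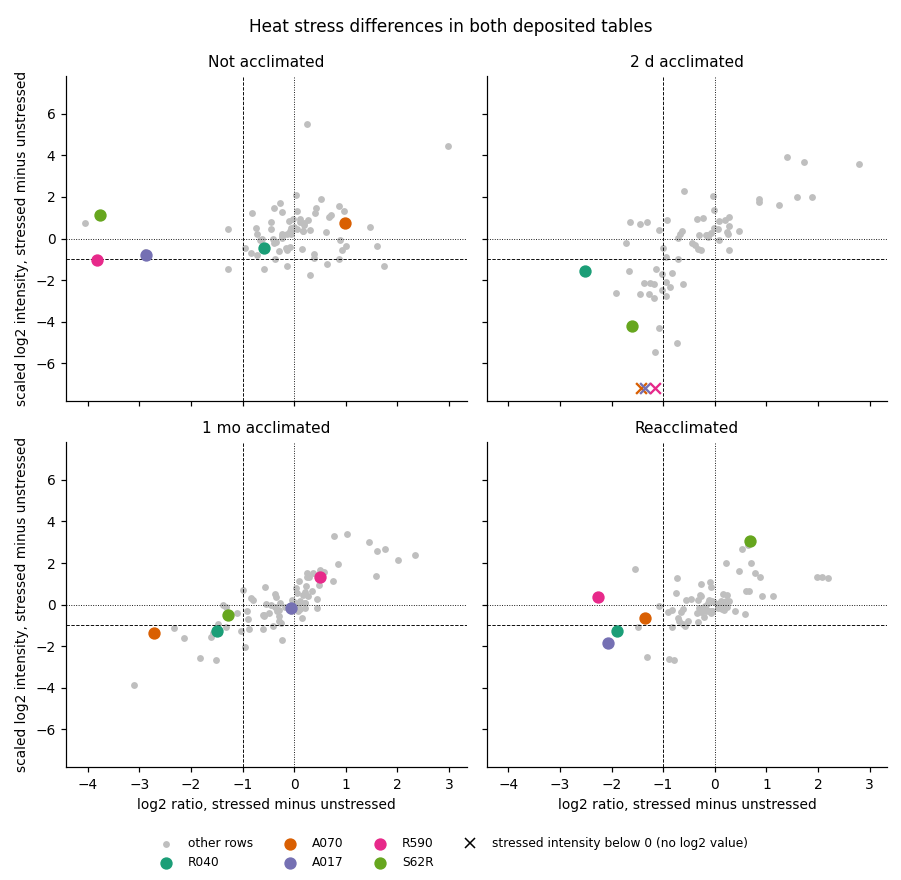
Heat stress difference (stressed minus unstressed) of each row by log2 ratio (horizontal axes) and by scaled log2 intensity (vertical axes) in the 4 states, with the 5 rows in colour, all other rows with both values in grey, and dashed lines at 2-fold lower. Crosses at the bottom edge are A070, A017 and R590 after 2 d acclimation, which have no log2 intensity; R040 lies below both dashed lines in 3 panels, while S62R lies left of the line and above 0 in rats that were not acclimated.

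The levels were also set against the untreated control, which leaves out the unstressed group of each pair except in rats that were not acclimated. These comparisons share 1 control sample. Stressed 2 d acclimated hearts were below the control in 5 of 5 rows, against 62.1% of all rows, and at least 2-fold below it in 4 of 5, against 18.4%. Stressed 1 mo acclimated hearts were below it in 4 of 5 rows, against 49.4% of all rows, with A017 at -0.04. There A070 and S62R were at least 2-fold lower, against 14.9% of all rows. Stressed reacclimated hearts were below it in 5 of 5 rows, against 44.8% of all rows, with R040, A070 and R590 at least 2-fold lower, against 14.9%. The stressed values are part of the differences that chose the rows, so these counts are a description too.

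The unstressed groups were then compared with the control and with each other. The values of the control and of the 2 d acclimated, 1 mo acclimated and reacclimated groups are part of the differences that chose the rows, and a high unstressed value helps a row to pass the rule. Counts that use them are therefore a description, and nothing is read from their contrast with the share of all rows. By log2 ratio, 0 of 5 rows were at least 2-fold lower than in the control in any unstressed group. The share of all rows was 6.9% in 2 d acclimated, 2.3% in 1 mo acclimated, 5.75% in deacclimated and 10.3% in reacclimated hearts. Rows at least 2-fold higher by log2 ratio were also 0 of 5 in 2 d acclimated, 1 mo acclimated and deacclimated hearts, against 12.6%, 11.5% and 20.7% of all rows. After reacclimation 2 of 5 were higher, A017 (3.39-fold) and R590 (2.10-fold), against 27.6% of all rows. Their intensities did not show it: A017 was at 4761 in reacclimated hearts and 4740 in the control (scaled difference -0.41), and R590 was at 1495 in reacclimated hearts and 5013 in the control (-2.17). By scaled intensity R590 was also at least 2-fold below the control after 2 d (-4.09), 1 mo (-2.66) and deacclimation (-4.20). So was A017, at -1.13, -2.05 and -3.53. A070 after 2 d (-1.90), R040 after deacclimation (-1.39) and S62R after reacclimation (-2.98) were also at least 2-fold lower. A070 was higher after deacclimation (1.57), and the other differences were under 2-fold. Shares of all rows were not computed for these, and low intensities make some sizes uncertain.

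Set against the deacclimated hearts they followed, reacclimated hearts were higher in A017 by a log2 difference of 2.53 and in R590 by 1.97, 2 of 5 rows against 13.8% of all rows. The scaled intensities gave 3.12 for A017, at 4761 after reacclimation and 652.6 after deacclimation. They gave 2.03 for R590, at 1495 after reacclimation and 436.2 after deacclimation, so both tables placed both rows higher. After deacclimation A017 and R590 ranked 8 and 7 from the lowest of 87 rows, close above the 5 rows below 0. The sizes of these scaled differences are therefore uncertain. S62R was lower after reacclimation by -1.31, 1 of 5 rows against 8.05% of all rows, and its intensity was 209.3, against 1690 after deacclimation (scaled difference -2.76). That 209.3 lay close above the 6 rows below 0 in the reacclimated group, so the size of the scaled difference is uncertain. R040 (0.05) and A070 (-0.49) differed by less than 2-fold in log2 ratio. By scaled intensity R040 differed by 0.69, but A070 was at least 2-fold lower (-1.85), at 1547 after reacclimation and 6665 after deacclimation.

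The reacclimated and the 2 d acclimated rats had the same latest exposure of 2 d at 34 °C. Between them A017 (1.24) and R590 (1.52) were at least 2-fold higher in reacclimated hearts, 2 of 5 rows against 18.4% of all rows. Their scaled intensities were higher by 0.71 and 1.93. By log2 ratio R040 (-0.49), A070 (0.47) and S62R (-0.94) differed by less than 2-fold. The scaled intensity differences of these rows were larger, at -1.66, 1.62 and -3.86, the last resting on the low 209.3 of S62R after reacclimation. From 1 mo against 2 d acclimation, A070 was higher by 1.08 (1 of 5 rows, against 5.75% of all rows), with an intensity of 1960 after 1 mo and 697.1 after 2 d (scaled difference 2.14). R590 was higher by 0.33 in log2 ratio and by 1.43 in scaled intensity, and R040, A017 and S62R were lower by less than 2-fold in both. After 2 d, A070 (697.1) and R590 (543.2) ranked 16 and 15 from the lowest of 87 rows. In that group 10 rows were below 0, so scaled differences that use these values are uncertain in size. Deacclimated hearts set against 1 mo acclimated hearts differed by less than 2-fold in log2 ratio in all 5 rows, between -0.79 (R590) and 0.71 (S62R). By scaled intensity R040 (-1.57), A017 (-1.48) and R590 (-1.53) were at least 2-fold lower, and A070 (1.33) was at least 2-fold higher. S62R was at -0.22, so A070 and S62R had opposite signs by ratio and by intensity. Shares of all rows were not computed for this comparison.

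The 5 rows lay at different places in the range of intensities. In the control, R040 ranked 62, R590 59 and A017 58 from the lowest of 87 rows, while A070 ranked 17 and S62R 11. R040 lay between 2113 and 19005 over the 9 groups, with a median of 3739, and was above 0 throughout. The medians of the others were 1409 (A070), 1726 (A017), 1495 (R590) and 1451 (S62R). The sign relative to the control was the same in both tables in 6 of 8 treated groups for R040, in 6 of 7 groups with a log2 intensity for A070, in 4 of 7 for A017, in 5 of 7 for R590 and in 5 of 8 for S62R.

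Likeness between rows was measured by Pearson's r over the log2 ratios of the 8 treated groups, which all share the control, and is a description. A017 and R590 were each other's most similar row of the other 86, with r = 0.94 (Spearman's rho 0.88), and r was 0.84 over the 7 groups without the heat-stressed one. Over the 7 groups in which both had a log2 intensity, r of the scaled intensities was 0.38. R040 was most like R519 (r = 0.90, rho 0.83) and R058 (r = 0.84, rho 0.79), and A070 was most like A042 (r = 0.80, rho 0.83) and A014 (r = 0.76, rho 0.55). For R040, r of the scaled intensities was 0.67 with R519 and 0.67 with R058, over 8 groups. For A070 it was 0.56 with A042 and 0.69 with A014, over 7 groups.

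S62R was most like 14R (r = 0.93, rho 0.71) and R198 (r = 0.93, rho 0.71). Both hold a value below -2.5 in the heat-stressed column, as S62R does (14R at -2.89 and R198 at -4.06). Without that column r was 0.74 with 14R and 0.73 with R198, and these rows then ranked 8 and 9 of 86 in likeness. The second row most like A017 was R594 (r = 0.91, and 0.80 without the heat-stressed group), and that for R590 was 14R (r = 0.84, but 0.38 without that group). Among the 5 rows, R040 and A070 had r = 0.68, and 0.83 without the heat-stressed group. S62R and A017 had r = 0.64, and -0.06 without that group. From the scaled intensities, r was -0.09 for A017 with R594 and 0.09 for R590 with 14R, over 7 groups each. For S62R it was 0.75 with 14R and 0.65 with R198, over 8 groups.

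At the threshold, R590 was the row just inside, with the third lowest of its differences at -1.16, and 14R the row just outside, at -0.92. The differences of 14R were -2.89 without acclimation, where its stressed value was also below -2.5, -1.16 in 2 d acclimated, -0.92 in 1 mo acclimated and -0.61 in reacclimated rats. With each group centred on its own median over all rows, only R040 and S62R met the rule. In A070, A017 and R590 the difference after 2 d acclimation then came to -0.95, -0.87 and -0.68. With the log2 ratios below -2.5 left out, R040 and A070 met the rule.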

How the data were processed

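Left ventricle RNA of 9 groups was measured on a Clontech array with a radioactive label. Per the labels, each deposited log2 value is a normalized ratio, the geometric mean of a treatment divided by that of the control. The normalization, the software and the selection of 87 rows are not stated in these sources. The second table deposited by the authors was read as intensity, on a linear scale, from its values. Its scaling and background correction are not stated either.

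Groups came from the sample titles. Differences were computed between groups per row, with the control taken as 0 and a 2-fold threshold. Intensities above 0 were put on the log2 scale and centred per group on the median of 59 rows. Groups hold 1 value each, so nothing was tested between them, and precision is limited by the number of arrays. Counting was checked on simulated rows with falls set in advance, which checks the code and says nothing about the rows here. The text names the 5 rows, the 2 rows most like each, and the rows beside the threshold. R087, the next row above the low values of the heat-stressed column, was named after its value was seen. The members, lists and rules were chosen with earlier results of these data known. Alternatives covered centring, the control column, low values, the threshold and the second table. Computation used pandas 2.3.3 with numpy 2.4.6 in Python 3.11.15, and figures used matplotlib 3.10.9.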

Additional observations from a re-analysis of the deposited data

Results flagged for a closer look

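In 3 of the 5 rows the heat stress difference was above 0 in 1 state and at least 2-fold lower in each of the other 3 states. The rule that chose the rows requires the 3 low differences, so only the sign in the remaining state was left free. The share of all rows with such a change of sign was not computed. A070 was higher by a log2 difference of 0.98 in rats that were not acclimated, R590 by 0.50 after 1 mo acclimation and S62R by 0.69 after reacclimation. Each state has 1 stressed and 1 unstressed sample, and the difference between states was not tested. In scaled intensity these differences were also above 0, at 0.77 for A070, 1.31 for R590 and 3.04 for S62R. The size for S62R rests on a low unstressed intensity of 209.3 and is uncertain.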

How the results depend on the processing

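Of the 20 differences of the 5 rows, 15 were at least 2-fold lower under stress. The count was 12 with groups centred on their medians, 12 without log2 ratios below -2.5, 12 without intensities of 0 or less, 15 with the control column as listed, 16 at a 1.5-fold and 9 at a 3-fold threshold. It was 7 by scaled intensity, 6 without scaling and 7 with each group's own median. With both kinds of low value left out, an alternative chosen after seeing the data, it was 9. Leaving out values or raising the threshold can only lower a count. Using the control column as listed could not change the count of 15, because its values in the 5 rows were within 1e-05 of 0. The cause of the difference between tables was not tested. The rule gave 5 rows with the control column as listed, 2 after centring and 2 without log2 ratios below -2.5 (chosen after seeing the data). The counts of rows lower in both tables were the same numbers without scaling. Mean stress differences stayed below 0 for all 5 rows without each state in turn and after centring. The sign without a state was set by the choice of rows. Each row had 3 differences at least 2-fold lower, and its other difference was at most 0.98. By scaled intensity the mean of R590 was above 0 (0.21), and that of S62R was -0.13. Without the rats that were not acclimated, the means of R590 and S62R were -0.97 and -0.73, and without 1 mo acclimation that of A070 was -0.60. Of the 10 most similar rows named, 3 stayed among the closest 2 over the 4 stress differences, 0 over the 5 unstressed groups, and 3 without the heat-stressed group (chosen after seeing the data). No paired analysis was possible because each group has 1 sample.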
